A study of Mus musculus with 8 samples.

Results

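The enzymes described here break down the branched-chain amino acids leucine, isoleucine and valine, and 6 genes were followed: Bcat2, Dbt, Ivd, Mccc2, Acadsb and Pcca. They were taken by gene symbol from a table of 50952 genes in subcutaneous white adipose tissue, and each symbol matched 1 row. The choice was made with the diet comparison of these same libraries in view, so the members were chosen by the CR and AL values given below. Their levels and differences are therefore a description with standard errors and carry no p-value.

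The tissue came from wild-type C57BL/6J mice kept on calorie restriction (CR) or fed ad libitum (AL) for 6 months, from 3 to 9 months of age. All mice shared genotype and strain, and diet was the only labelled difference. By the labels there were 8 mice, 4 on each diet, whereas the deposited table has 7 libraries, CR1 to CR4 and AL2 to AL4. The libraries were not matched to single mice.

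Breakdown begins with uptake of the amino acids into the cell and the removal of their amino group in mitochondria by Bcat2. The branched-chain ketoacid dehydrogenase complex, built on a core of Dbt, then commits the carbon skeletons irreversibly to oxidation, after which the 3 amino acids follow separate arms. Mature adipocytes are known to burn these amino acids and to use their carbon for fatty acid synthesis. The leucine arm runs through Ivd and the carboxylase of which Mccc2 is a subunit. Acadsb acts in the isoleucine arm, and Pcca carboxylates the propionyl-CoA that isoleucine and valine leave.

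Values are TPM, the abundance of a transcript from reads scaled by gene length and by library total. The deposited rows held 42.9% to 45.0% of the TPM of a CR library and 49.0% to 53.1% of an AL library. The median tested gene was accordingly lower in CR by 0.20 on the log2 scale (log2 change of -0.20), and the members' changes are therefore given on 2 scales. The deposited scale takes TPM as they stand. The relative scale first divides each library by its median ratio to a common profile, which brings the median change to -0.01. Rows in this table have a false discovery rate of at least 0.05 in the authors' deposited table. Genes without a row were not analysed here. Libraries held 4147026 to 8896627 recovered reads in rows of known length, and each member rested on 1138 reads or more per library. Counting error was at most 2.96% of a member's value and covers counting only. SDs are the spread between these libraries. Standard errors of a log2 change come from the fit described below, which draws that spread toward a trend over all tested genes.

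Adipocyte markers were abundant in every library. The 7 of 10 listed markers with a row summed to 70393 to 81154 TPM in CR and 89517 to 105459.8 TPM in AL, with Adipoq, Plin1, Lep, Cidec, Cfd and Car3 among them and none at 0. Endothelial markers (6 of 7 with a row) summed to 296 to 358 TPM in CR and 380 to 442 TPM in AL, and the mural marker Rgs5 (1 of 4) stood at 79.7 to 108 TPM in CR and 119 to 135 TPM in AL. For these 3 sums CR and AL did not overlap in deposited TPM, but after scaling they did. Scaled, the adipocyte sum was 74262 to 85326 in CR and 84770.2 to 94361 in AL, the endothelial sum 311 to 389.7 in CR and 358 to 390.4 in AL, and Rgs5 84.1 to 116 in CR and 103 to 127 in AL. Skeletal muscle was represented by Myh1 alone (1 of 8), at 0.325 to 9.8 TPM in CR and 1.59 to 64.2 TPM in AL, with 64.2 TPM in AL2. Lymphocyte markers (5 of 6) summed to 2.07 to 5.52 TPM in CR and 2.80 to 10.6 TPM in AL. Epithelial markers (6 of 6) summed to 0.831 to 9.83 TPM in CR and 1.68 to 3.76 TPM in AL. Ucp1 (1 of 6 brown or beige adipocyte markers) was at 2.79 to 8.51 TPM in CR and 0.401 to 6.20 TPM in AL. The 6 macrophage and 7 fibroblast markers had no row and were not analysed here. The part of any of these cell types in the results below was not tested. In bulk tissue, fewer cells of a type and less RNA per cell cannot be told apart.

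Promoters are shown for the most similar pair of members, Ivd and Bcat2, and for Mccc2, whose transcript lay on the other side. Each is 250 bases before and 50 after a start site in RefSeq (GRCm38.p6), read 5′ to 3′ on the gene's strand, with motif matches in capitals. The Ivd window is chr2:118861744-118862043 on the plus strand, the Bcat2 window chr7:45569903-45570202 on the plus strand, and the Mccc2 window chr13:100015590-100015889 on the minus strand.
Ivd: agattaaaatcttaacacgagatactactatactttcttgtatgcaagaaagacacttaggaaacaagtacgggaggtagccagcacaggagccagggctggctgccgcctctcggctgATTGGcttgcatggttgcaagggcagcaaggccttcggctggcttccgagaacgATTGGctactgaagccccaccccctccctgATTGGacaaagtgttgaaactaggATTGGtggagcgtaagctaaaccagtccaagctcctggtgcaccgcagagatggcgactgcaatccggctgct
Bcat2: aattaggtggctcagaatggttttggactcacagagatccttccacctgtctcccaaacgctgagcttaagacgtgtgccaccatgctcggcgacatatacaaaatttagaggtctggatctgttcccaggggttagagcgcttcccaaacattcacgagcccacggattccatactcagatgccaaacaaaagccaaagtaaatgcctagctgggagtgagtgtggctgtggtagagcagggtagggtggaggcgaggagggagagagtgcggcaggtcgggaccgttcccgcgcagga
Mccc2: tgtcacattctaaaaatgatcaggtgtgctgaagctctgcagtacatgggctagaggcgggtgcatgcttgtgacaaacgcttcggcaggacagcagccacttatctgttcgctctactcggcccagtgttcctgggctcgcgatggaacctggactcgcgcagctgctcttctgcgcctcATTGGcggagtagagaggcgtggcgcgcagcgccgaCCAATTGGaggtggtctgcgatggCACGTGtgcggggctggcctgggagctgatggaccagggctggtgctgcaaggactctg

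The letters searched on both strands were those of the CCAAT box (CCAAT), the GC box (GGGCGG), the E-box (CACGTG), the half-site of nuclear receptors (AGGTCA), the ETS core (CCGGAAG) and the TATA box (TATAAA). The Ivd window held CCAAT 4 times, all on the reverse strand, where it reads ATTGG, and its matches lay 131, 77, 47 and 23 bases before the start. Mccc2 held it 3 times, at 69, 33 and 30 bases before the start, and the matches at 33 and 30 overlap as a palindrome. Mccc2 also held CACGTG, 9 bases before the start. Bcat2 held none of these letters in this window. CCAAT occurs in 37.4% and CACGTG in 7.15% of all 32851 RefSeq mouse windows of this length.

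Windows were found for 5 of the 6 members, 7 in all, and are not shown for Acadsb (chr7:131410351-131410650, plus strand) and Pcca (chr14:122534078-122534377, plus strand). Acadsb held GGGCGG 5 times, 2 of them overlapping, and Pcca held GGGCGG 2 times, CCAAT 1 time and AGGTCA at base 7 after the start. GGGCGG occurs in 35.7% and AGGTCA in 16.3% of all windows. Of the 7 windows, 6 had a GC share above the median of 52.7% over all windows, from 53.0% in Ivd to 66.0% in Acadsb. CG pairs numbered 29 in Acadsb, 21 in Pcca, 19 in Mccc2, 13 in Bcat2 and 11 in Ivd, beside a median of 7. The ETS core and the TATA box letters, which occur in 8.86% and 13.6% of all windows, were in none of the 7. A match is a string of letters only, and binding was not measured.

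Bcat2, the mitochondrial aminotransferase, was the most abundant member in AL and lies at chr7:45570153-45589711 (plus strand, GRCm38). It stood at 315, 328, 304 and 313 TPM in CR1 to CR4, against 271, 281 and 343 TPM in AL2, AL3 and AL4. The groups overlapped, because AL4 was above every CR library while AL2 and AL3 were below all of them. The means were 315 ± 10.2 TPM in CR (SD, n = 4) and 298 ± 38.8 TPM in AL (SD, n = 3). The log2 change was 0.09 ± 0.09 (SE) on the deposited scale and 0.30 ± 0.10 relative to the typical gene. Without AL4 the relative change was 0.42, and without AL3 it was 0.22. The antisense gene 0610005C13Rik overlaps Bcat2 exons, and the strand setting of the authors' counting is not given in the sources used here.

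Dbt encodes the transacylase core of the ketoacid dehydrogenase complex and lies at chr3:116513070-116549981 (plus strand). It was lower in CR. Dbt stood at 104, 108, 115 and 114 TPM in CR1 to CR4, against 150.2, 168 and 159 TPM in AL2, AL3 and AL4. Every CR library was below every AL library. The means were 110.4 ± 5.09 TPM in CR (SD, n = 4) and 159 ± 8.86 TPM in AL (SD, n = 3), a ratio of 0.694. CR minus AL gave a log2 change of -0.52 ± 0.06 (SE) on the deposited scale and -0.31 ± 0.05 relative to the typical gene, where the groups also did not overlap. Leaving out any 1 library kept the relative change between -0.33 and -0.29. The other subunits and the regulatory kinase and phosphatase of this complex were not analysed here.

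**Figure D1:**
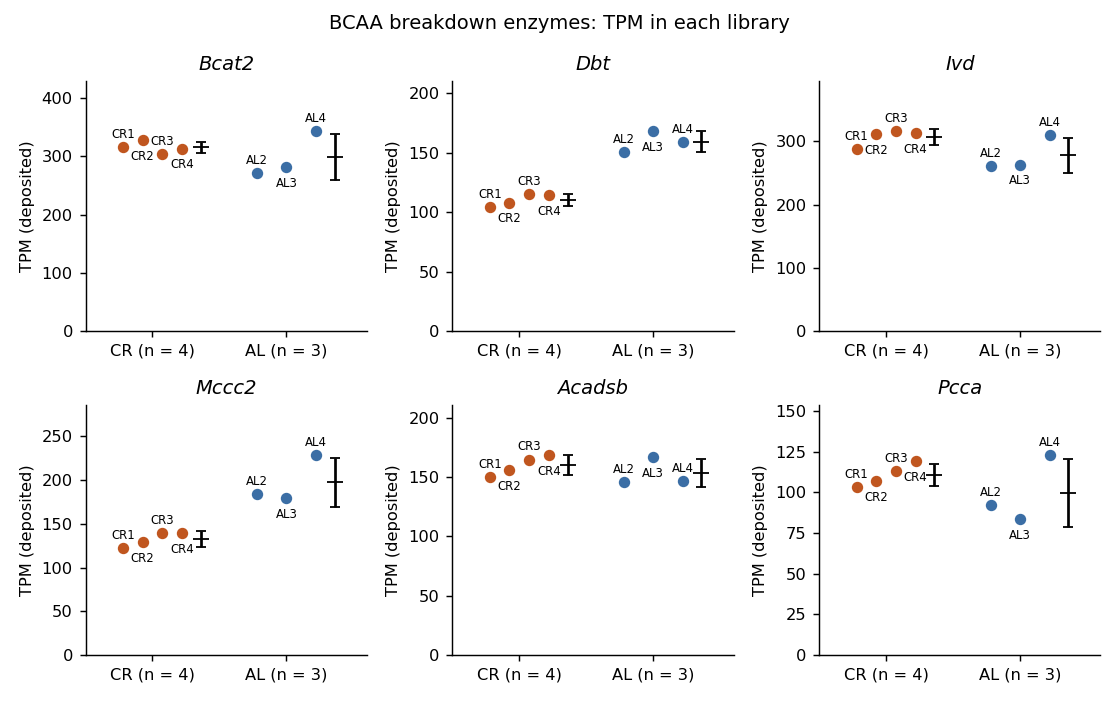
TPM of the 6 enzymes in each library (points, labelled by library), CR left of AL, with the group mean as a line and the SD as a bar (n = 4 CR, n = 3 AL). Dbt and Mccc2 have every CR library below every AL library, with Dbt at 104 to 115 TPM in CR and 150.2 to 168 TPM in AL, while the groups of the other members overlap.

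The 2 leucine enzymes lay on opposite sides. Ivd, isovaleryl-CoA dehydrogenase, takes the first step of the leucine arm and lies at chr2:118861954-118882909 (plus strand). It stood at 288, 311, 316 and 313 TPM in CR1 to CR4, against 260.1, 263 and 309.9 TPM in AL2, AL3 and AL4. On the deposited scale the lowest CR library was below AL4 and above the other AL libraries. The means were 307 ± 12.6 TPM in CR (SD, n = 4) and 278 ± 28.1 TPM in AL (SD, n = 3). On the log2 scale CR minus AL was 0.15 ± 0.08 (SE) on the deposited scale and 0.37 ± 0.09 relative to the typical gene. After scaling, Ivd stood at 314, 334, 332 and 330.4 in CR1 to CR4 and at 246, 227 and 292 in AL2, AL3 and AL4, so the groups no longer overlapped.

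Mccc2 encodes the non-biotin subunit of methylcrotonyl-CoA carboxylase, which acts directly after Ivd, and lies at chr13:99948530-100015639 (minus strand). It stood at 122, 129, 140.0 and 139.6 TPM in CR1 to CR4, against 184, 179 and 229 TPM in AL2, AL3 and AL4. Every CR library was below every AL library. The means were 133 ± 8.73 TPM in CR (SD, n = 4) and 197 ± 27.6 TPM in AL (SD, n = 3), a ratio of 0.672. The log2 change was -0.56 ± 0.10 (SE) on the deposited scale and -0.35 ± 0.11 relative to the typical gene. Without AL4 the relative change was -0.22, and without AL3 it was -0.46, so its size depended on which AL libraries were used.

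Mccc1, the biotin-carrying partner of Mccc2 in the same enzyme, was not called by limma. It averaged 76.5 ± 7.41 TPM in CR (SD, n = 4) and 81.8 ± 14.8 TPM in AL (SD, n = 3). Its log2 change was -0.09 on the deposited scale (limma, Benjamini-Hochberg adjusted p = 0.656) and 0.13 on the relative scale, with a 95% interval from -0.18 to 0.44 (adjusted p = 0.537), so the sign depended on the scaling. The ratio of Mccc2 to Mccc1 within a library was 1.81, 1.75, 1.73 and 1.66 in CR1 to CR4, against 2.46, 2.49 and 2.32 in AL2, AL3 and AL4. A ratio of 2 genes in 1 library is free of the scaling, and here the groups did not overlap. Mccc2 was chosen by this contrast, so the ratio is a description and nothing is read from its separation.

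Acadsb, the short/branched-chain acyl-CoA dehydrogenase of the isoleucine arm, lies at chr7:131410601-131448944 (plus strand). It stood at 150.2, 156, 165 and 169 TPM in CR1 to CR4, against 146, 167 and 147 TPM in AL2, AL3 and AL4. The groups overlapped through AL3. The means were 160.1 ± 8.5 TPM in CR (SD, n = 4) and 153 ± 11.5 TPM in AL (SD, n = 3). CR minus AL gave a log2 change of 0.06 ± 0.07 (SE) on the deposited scale and 0.28 ± 0.05 relative to the typical gene. After scaling, Acadsb stood at 163 to 178 in CR and 138 to 144 in AL and the groups separated, so the difference of Acadsb rested on the scaling. Leaving out any 1 library kept the relative change between 0.26 and 0.30.

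Pcca encodes the biotin-carrying subunit of propionyl-CoA carboxylase and lies at chr14:122534324-122891100 (plus strand). It stood at 103, 107, 113 and 119 TPM in CR1 to CR4, against 92.4, 83.4 and 123 TPM in AL2, AL3 and AL4. AL4 was above every CR library and the other AL libraries below all of them, as for Bcat2. The means were 111 ± 7.26 TPM in CR (SD, n = 4) and 99.7 ± 20.9 TPM in AL (SD, n = 3). On the log2 scale CR minus AL was 0.17 ± 0.13 (SE) on the deposited scale and 0.38 ± 0.14 relative to the typical gene, with 0.56 without AL4 and 0.22 without AL3. Ggact, on the opposite strand, overlaps a Pcca exon but stood at only 8.41 to 11.4 TPM. Mcee, the epimerase that acts on the product of Pcca's enzyme, averaged 138 ± 11.9 TPM in CR (SD, n = 4) and 130.1 ± 16.4 TPM in AL (SD, n = 3). The log2 change of Mcee was 0.09 on the deposited scale (limma, adjusted p = 0.553) and 0.31 on the relative scale, with an interval from 0.03 to 0.59 (adjusted p = 0.144), and it was called on neither.

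Counted together, 4 of the 6 members were higher in CR and 2 lower on both scales, while 26.2% of all tested genes were higher on the deposited scale and 48.6% on the relative scale. On the deposited scale 2 members were lower without overlap, beside 31.1% of all tested genes, and 0 were higher without overlap, beside 2.17%. On the relative scale 2 were lower without overlap (Dbt and Mccc2), beside 12.7% of all tested genes, and 2 were higher (Ivd and Acadsb), beside 13.9%. The median member change was 0.07 on the deposited scale and 0.29 on the relative scale, against -0.20 and -0.01 over all tested genes. These counts use the contrast that chose the members, so nothing is read from them. The authors' deposited table gave the members false discovery rates from 0.0907 for Ivd to 0.178 for Bcat2.

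**Figure D2:**
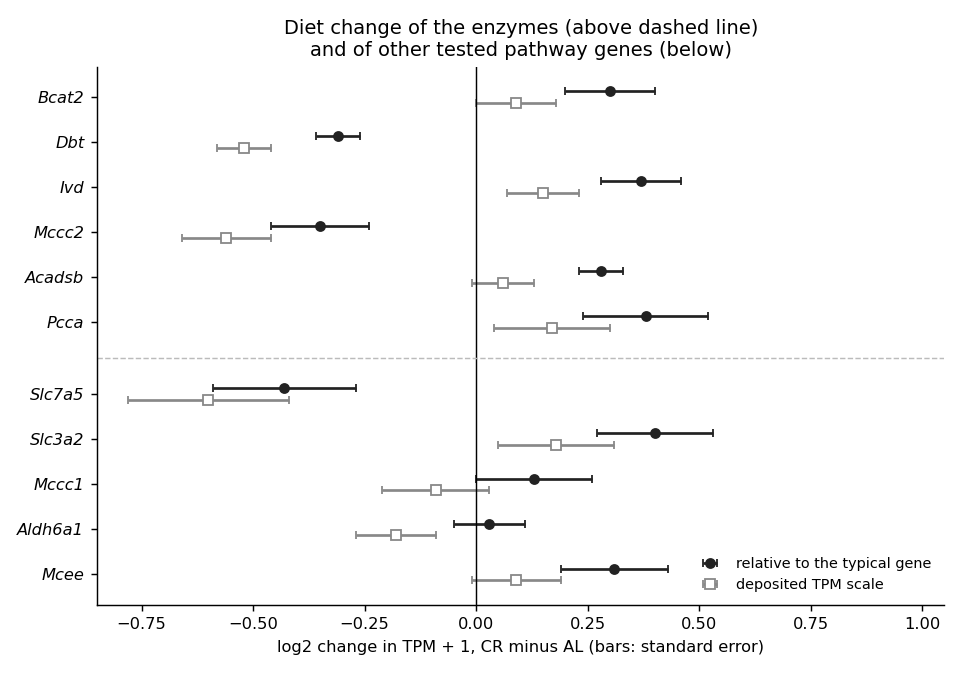
Log2 change of TPM + 1, CR minus AL, for the 6 enzymes (above the dashed line) and the 5 other tested pathway genes (below), with filled circles for the relative scale, open squares for the deposited scale and bars for the standard error. Dbt, Mccc2 and Slc7a5 lie below 0 on both scales, and every point moves right on the relative scale, as Acadsb does with 0.06 and 0.28.

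Ratios of TPM between members within a library were similar in the diets for members on the same side and differed for members on opposite sides. Ivd was 2.36, 2.42, 2.25 and 2.24 times Mccc2 in CR1 to CR4, against 1.41, 1.47 and 1.35 times in AL2, AL3 and AL4. The ratio of Bcat2 to Dbt averaged 2.86 ± 0.201 in CR (SD, n = 4) and 1.88 ± 0.247 in AL (SD, n = 3). Acadsb to Dbt averaged 1.45 ± 0.0226 in CR and 0.963 ± 0.0342 in AL, and Pcca to Mccc2 averaged 0.834 ± 0.0198 in CR and 0.502 ± 0.0355 in AL (SD, n = 4 and 3). In these 4 ratios the groups did not overlap, in a contrast that chose the members. Within a direction they did overlap. Ivd to Bcat2 averaged 0.976 ± 0.0556 in CR and 0.932 ± 0.0278 in AL, and Mccc2 to Dbt averaged 1.2 ± 0.0251 in CR and 1.24 ± 0.188 in AL (SD, n = 4 and 3).

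**Figure D3:**
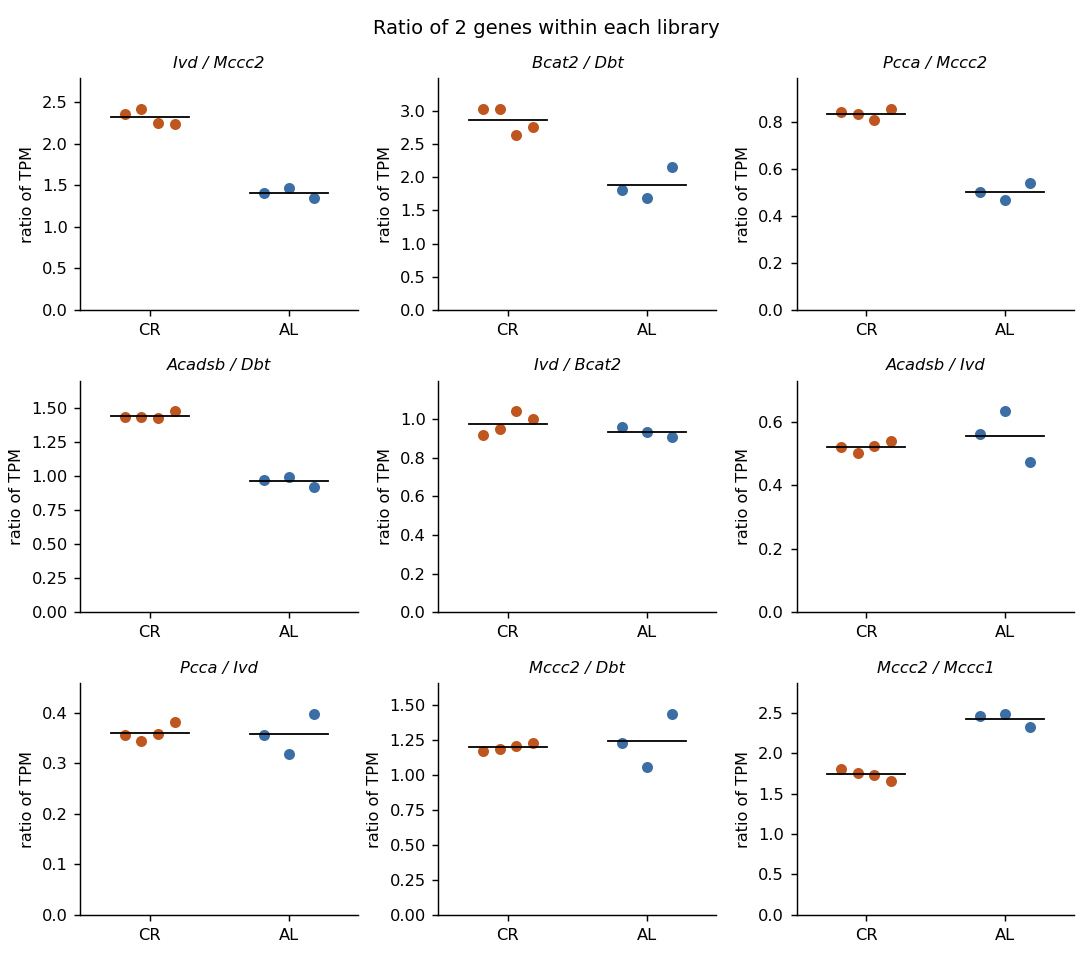
Ratios of TPM between pairs of the enzymes and their pathway partners within each library (points), CR left of AL, with the group mean as a line. Ivd to Mccc2 lies at 2.24 to 2.42 in CR and 1.35 to 1.47 in AL, whereas Ivd to Bcat2 overlaps between the diets.

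The order of levels, in length-scaled TPM, differed with diet. In all 3 AL libraries it was Bcat2, Ivd, Mccc2, Dbt, Acadsb, Pcca, from highest to lowest. In all 4 CR libraries Acadsb stood above Mccc2 and Dbt. The members were chosen by this contrast, so the change of order is a description and nothing is read from it. Bcat2 and Ivd lay within each other's spread in both diets, as did Dbt and Pcca in CR and Dbt and Acadsb in AL. Summed over the members, TPM came to 1083, 1139.6, 1153 and 1167 in CR1 to CR4, against 1104, 1141 and 1312 in AL2, AL3 and AL4. The sums overlapped between the diets. All 6 were abundant, each with a mean TPM above that of at least 93.2% of tested genes.

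In the members, CR libraries differed little among themselves. After scaling, their coefficient of variation over CR libraries lay between 2.84% for Ivd and 5.21% for Pcca, beside a median of 11.3% over all tested genes. The members are abundant and were chosen by this contrast, so that median is not a like comparison. In the tested pathway genes that are not members it was 8.15% for Mcee, 8.21% for Mccc1, 9.78% for Slc3a2, 9.84% for Aldh6a1 and 16.3% for Slc7a5. Over AL libraries the members' coefficient was 2.32% for Acadsb and 2.67% for Dbt. It was 13% for Ivd, 15.5% for Bcat2, 17.2% for Mccc2 and 24.3% for Pcca, beside a median of 13.5% over all tested genes. In those last 4 members AL4 held the highest AL value. Pparg, the adipocyte nuclear receptor, was also highest in AL4, at 449.6 TPM against 305 in AL2 and 293 in AL3, and Lep, the adipocyte hormone leptin, stood there at 1885 TPM against 769 and 908 TPM. Of the other adipocyte markers with a row, Plin1 and Car3 were also highest in AL4, at 2152 and 26409 TPM, against 2003 and 25353 in AL3. Adipoq, Cidec and Cfd were instead highest in AL3, at 8739, 5894 and 62269 TPM, against 8442, 4813 and 55966 in AL4. Pparg and Lep were named after their values were seen. The part of AL4's state in the spread was not tested.

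**Figure D4:**
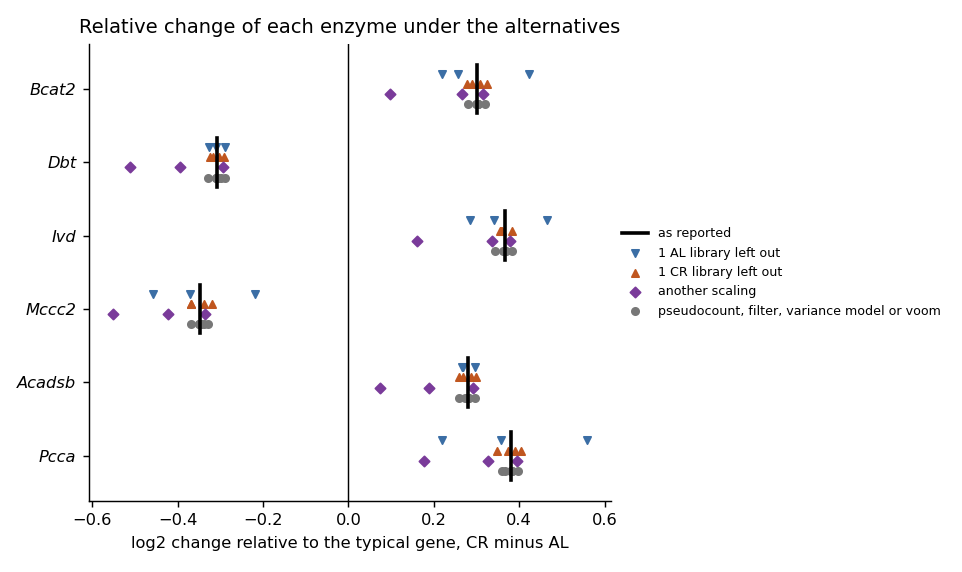
Relative log2 change, CR minus AL, of each enzyme under the 18 alternative settings and as given in the text (line), with triangles for libraries left out, diamonds for other scalings and circles for other fits or filters. Each keeps its sign under all of them, with Dbt between -0.51 and -0.29 and Pcca between 0.18 and 0.56. Fits that change only the variance model leave a log2 change as it is, and the enzymes were chosen by this contrast.

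Likeness between profiles was measured as the root mean square difference of scaled log2 values over the 7 libraries after centring each gene. Bcat2 and Ivd were the closest members, at 0.0664, followed by Ivd and Pcca at 0.0941. Dbt and Mccc2 were 0.119 apart. Of the other pairs within a direction, Bcat2 and Pcca lay 0.116 apart and Ivd and Acadsb 0.122. Bcat2 and Acadsb lay at 0.146, and Acadsb and Pcca at 0.203. Pairs across the 2 directions lay 0.292 to 0.381 apart. The median distance from a member to the 5888 genes described next ran from 0.2 for Acadsb to 0.295 for Pcca. Acadsb and Pcca were thus about as far apart as Acadsb and the median gene. Over all 5888 genes with a mean of at least 5 TPM and a symbol that passed the naming rule, the gene most like Bcat2 was Bloc1s5 (0.0243), followed by Nedd8 (0.0336) and BC029722 (0.0357). Dbt was most like Mbtps1 (0.0243), Pdia6 (0.0327) and Gtf2a1 (0.0358). Ivd was most like Alg9 (0.0354), Oplah (0.038) and Larp1b (0.0447). None of the 9 genes named so far is another of the listed pathway genes. Mccc2 was most like Pygb (0.034), Rgma (0.0483) and Camkmt (0.0507). Acadsb was most like Pus10 (0.0294), Trim44 (0.0313) and Hdlbp (0.0313). Pcca was most like Idh1 (0.0523), Ube2g2 (0.0593) and Ak3 (0.0636), and Idh1 is the cytosolic isocitrate dehydrogenase. Libraries of 1 diet share these profiles, so the distances are a description.

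Of 32 other listed genes of uptake and breakdown, 6 had a row and 5 were tested. On the deposited scale 1 of 5 was called lower and 0 higher (limma, Benjamini-Hochberg), beside 17.6% lower and 0.546% higher over all tested genes. On the relative scale 0 of 5 were called, beside 0.0506% (5 genes) over all tested genes. Both counts cover only genes with an authors' false discovery rate of at least 0.05 for this contrast, so they do not show a lack of change. Unadjusted, 2 of the 5 had a p under 0.05 with a higher and 1 with a lower value on the relative scale, beside 15.8% and 13.2% of all tested genes. The median relative change was 0.13, with 4 of 5 above 0, beside -0.01 over all tested genes, 48.6% of which were above 0.

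The gene called lower was Slc7a5, which encodes the light chain of the plasma membrane exchanger for large neutral amino acids. It stood at 2.46, 2.31, 2.58 and 3.34 TPM in CR1 to CR4, against 3.5, 5.31 and 5.02 TPM in AL2, AL3 and AL4, with every CR library below every AL library. The log2 change was -0.60 ± 0.18 (SE) on the deposited scale (limma, adjusted p = 0.0498). The relative log2 change of -0.43 ± 0.16, with an interval from -0.81 to -0.06, was not called (limma, adjusted p = 0.135), and after scaling the groups overlapped. It rested on 34 to 103 reads per library, and leaving out any 1 library other than AL2 ended the call. Slc3a2, the heavy chain of the same exchanger, averaged 139.5 ± 13.3 TPM in CR (SD, n = 4) and 124 ± 23.0 TPM in AL (SD, n = 3). Its log2 change was 0.18 on the deposited scale (limma, adjusted p = 0.353) and 0.40 on the relative scale, with an interval from 0.09 to 0.70 (adjusted p = 0.107), and it was called on neither. Slc6a15, a neuronal transporter of branched-chain amino acids, was near 0 and not tested.

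Aldh6a1, the methylmalonate semialdehyde dehydrogenase of the valine arm, was the most abundant of the other pathway genes. It averaged 457 ± 51.9 TPM in CR (SD, n = 4) and 517 ± 17.2 TPM in AL (SD, n = 3). Its log2 change was -0.18 on the deposited scale (limma, adjusted p = 0.192) and 0.03 on the relative scale, with an interval from -0.16 to 0.22 (adjusted p = 0.811), so its sign also depended on the scaling.

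Genes around the pathway were described from further lists, 69 genes in all, of which 23 were tested. On the deposited scale 4 were called lower and 0 higher, a share near the 17.6% called lower over all tested genes, so the count says nothing particular of these lists. On the relative scale 0 were called (limma, where 4 higher and 3 lower had an unadjusted p under 0.05). Oxct1, the transferase that lets tissues use ketone bodies, fell on the deposited scale. It averaged 224 ± 13.6 TPM in CR (SD, n = 4) and 342 ± 47.9 TPM in AL (SD, n = 3), a log2 change of -0.60 (limma, adjusted p = 0.0137). Its relative change of -0.38 was not called (limma, adjusted p = 0.077). Sirt4, a mitochondrial sirtuin reported to act on methylcrotonyl-CoA carboxylase, also fell on the deposited scale, averaging 12.9 ± 0.618 TPM in CR (SD, n = 4) and 18 ± 2.49 TPM in AL (SD, n = 3). Its log2 change was -0.44 there (limma, adjusted p = 0.0248) and -0.24 on the relative scale (limma, adjusted p = 0.122).

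Of 25 genes through which leucine is sensed by the kinase complex mTORC1, 11 were tested and 2 fell on the deposited scale, again near the 17.6% called lower over all tested genes. Lars, the leucyl-tRNA synthetase, stood at 26.9 to 29.5 TPM in CR and 36.7 to 42.4 TPM in AL, with a log2 change of -0.46 (limma, adjusted p = 0.0136). Wdr24, a subunit of the GATOR2 complex that was named after its values were seen, averaged 17.1 TPM in CR and 20.8 TPM in AL, with a log2 change of -0.27 (limma, adjusted p = 0.0393). Neither was called on the relative scale, where the changes were -0.25 for Lars (limma, adjusted p = 0.077) and -0.06 for Wdr24 (adjusted p = 0.647). Lamtor3, a subunit of the lysosomal Ragulator scaffold, had changes of 0.10 on the deposited and 0.31 on the relative scale (limma, adjusted p = 0.318 and 0.0754). Nprl3, of the GATOR1 complex, had changes of 0.07 and 0.27 on those scales (limma, adjusted p = 0.683 and 0.16).

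Cofactor supply was covered by few genes. Gcdh and Acad9, the other acyl-CoA dehydrogenases tested, had relative changes of 0.28 (limma, adjusted p = 0.0988) and 0.24 (adjusted p = 0.179), and deposited ones of 0.07 and 0.03. Etfa, a subunit of the flavoprotein that takes electrons from Ivd and Acadsb, averaged 699.8 ± 72.4 TPM in CR (SD, n = 4) and 719.8 ± 22.9 TPM in AL (SD, n = 3). Its log2 change was -0.05 on the deposited scale (limma, adjusted p = 0.74) and 0.17 on the relative scale (adjusted p = 0.228), and its sign depended on the scaling. Hlcs, which attaches biotin to carboxylases, and Slc5a6, which imports biotin, had relative changes of -0.11 and -0.09 and deposited ones of -0.31 and -0.30. Lipt2, of lipoate synthesis, had a relative change of 0.10 and a deposited one of -0.10. None of these 3 was called on either scale. Among regulators, Ppara and Sirt3 had relative changes of -0.33 (limma, adjusted p = 0.219) and 0.27 (adjusted p = 0.221), and deposited ones of -0.53 and 0.08 (adjusted p = 0.0667 and 0.738).

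Of 32 listed genes for the tricarboxylic acid cycle and mitochondrial content, 3 were tested. Idh2, the mitochondrial isocitrate dehydrogenase, fell on the deposited scale, averaging 195 ± 13.7 TPM in CR (SD, n = 4) and 268 ± 36.3 TPM in AL (SD, n = 3), with a log2 change of -0.45 (limma, adjusted p = 0.021). Its relative change of -0.23 was not called (adjusted p = 0.193). Vdac3, a channel of the mitochondrial outer membrane, and Tfam, which packages mitochondrial DNA, had relative changes of 0.33 (limma, adjusted p = 0.173) and 0.07 (adjusted p = 0.644), and deposited ones of 0.12 and -0.14. Scaled to these last 2 genes, the members' changes shrank to 0.10 for Bcat2, 0.16 for Ivd, 0.08 for Acadsb and 0.18 for Pcca, and came to -0.51 for Dbt and -0.55 for Mccc2. This scaling rests on 2 genes and is no test of mitochondrial content. The part of mitochondrial content in the members' values was not tested.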

How the data were processed

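RNA of subcutaneous white fat was sequenced from mice on 2 diets. The labels' protocols name ribosomal RNA depletion with directional library synthesis and also poly-A purification, without saying which library had which. Per the submitters' processing notes, edgeR 3.38.4, featureCounts 2.0.3, STAR 2.7.10b, SAMtools 1.17 and FastQC 0.12.1 were used with build GRCm39, with no roles given. The authors deposited TPM for each library, and 1 FDR (an adjusted p-value) per gene whose smallest value here was 0.05. Columns were assigned to diets by name, and 0 columns were left without a group. Members and gene lists were chosen with earlier results of these data known.

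The 9883 genes that reached 1 TPM in 4 or more libraries were fitted with limma 3.58.1 in R 4.3.3, on log2(TPM + 1) with diet as the only term, a variance trend and two-sided p-values adjusted by Benjamini-Hochberg over all of them. Calls had an adjusted p under 0.05. This scale understates changes of low genes. The second fit used median-ratio scaled values, with factors of 0.919 to 0.951 in CR and 1.06 to 1.16 in AL. Members enter both fits but carry no p. The procedure was tested on simulated data. Named genes were the members, every tested pathway gene and, from each further list, up to 3 genes with the smallest p after scaling where any gene was called on the deposited scale, otherwise the 2 with the highest mean. The 3 most similar profiles per member completed the rule. Wdr24 falls outside it. Marker lists are given as sums, and 1 listed pathway gene is not reported here.

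Reads were recovered from TPM steps with GENCODE M21 exon lengths: of 22034 rows judged, with up to 1000 reads, 94.55% came out whole in all libraries, within 0.05. M21 coordinates are of GRCm38 and were not compared with the deposited build. Transcripts were searched for near copies with BLAST 2.17.0 (90% identity over at least 100 bases), which found such a stretch in 437 other genes for Ivd, 23 for Bcat2, 21 for Pcca, 2 for Acadsb and none for Dbt and Mccc2. Leaving aside genes that overlap the member, which the counts include, the longest was 178 bases in Ivd, 173 in Bcat2, 181 in Pcca and 261 in Acadsb. Tables and plots were made in Python 3.11.15 (pandas 2.3.3, numpy 2.4.6, matplotlib 3.10.9). Alternatives were pseudocounts of 0.1 and 5 TPM, other filters, other scalings, robust and voom fits and leaving out each library. Scaling to the sum of the rows was added after seeing the data.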

Additional observations from a re-analysis of the deposited data

Results flagged for a closer look

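A test for a sample far from the rest of its group was applied to 37 sets of 4 CR libraries, for the members and the named genes around them, and chance flags about 1 in 20 such sets. It marked 3. Ivd stood at 288 TPM in CR1, against 311 to 316 TPM in the other CR libraries, a gap of 0.839 of the group's range. Oxct1 stood at 245 TPM in CR3, against 216 to 220.2 TPM in the others (0.862 of the range), and Idh2 stood at 216 TPM in CR3, against 186 to 189.6 TPM in the others (0.875 of the range). AL has 3 libraries and was not tested in this way.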

How the results depend on the processing

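The 6 members kept their sign under all 18 alternatives on the relative scale, with ranges of 0.10 to 0.42 for Bcat2, -0.51 to -0.29 for Dbt, 0.16 to 0.46 for Ivd, -0.55 to -0.22 for Mccc2, 0.08 to 0.30 for Acadsb and 0.18 to 0.56 for Pcca. Fits without a variance trend or with robust moderation cannot alter a log2 change. The members were also chosen by this contrast, so their kept signs are a description. The count of called genes moved more than these changes. On the deposited scale 1796 genes were called, against 742 with no filter. Leaving out 1 library gave 662 to 1596 (662 without CR2, 725 without AL3, 765 without CR1, 1032 without CR3 and 1170 without CR4). Quantile normalization, scaling to 2 mitochondrial genes and scaling to the sum of the rows replace the deposited scale. They gave 5, 8 and 5 calls, the same counts whichever scale they started from. On the relative scale 5 genes were called, against 3 with a pseudocount of 0.1, 2 with no filter, 8 after scaling to the mitochondrial genes, 0 with a mean of at least 5 TPM (2366 at an unadjusted p under 0.05, limma) and 0 with voom (3067 unadjusted). Leaving out 1 library gave 0 to 71, with 71 without AL4, 12 without AL2, 3 without AL3 and 0 without any 1 CR library (limma, 2287 to 2464 unadjusted). Of the other pathway genes 1, Slc7a5, was called on the deposited scale, against 0 with no filter, with a filter of 3 libraries and with robust moderation. The count was also 0 after quantile normalization and after scaling to the mitochondrial genes or to the sum of the rows, which replace that scale. With 1 library left out it was 0 to 1, with 1 only without AL2. A filter on a mean of at least 5 TPM left Slc7a5 untested, at means of 2.67 TPM in CR and 4.61 TPM in AL. The cause of the other changes in this count was not tested. On the relative scale the count was 0 under every alternative run. No paired analysis was made, because the AL and CR mice are separate animals and the labels used here name nothing that pairs them. Library numbers in the deposited table could also not be tied to those of the labelled mice. With 3 AL libraries, and AL4 apart from the others in 4 members, the size of those members' differences is known only roughly.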
